A study of Mus musculus with 8 samples.

Results

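The heterochromatin genes described here are 10 genes that encode HP1 proteins, H3K9 methyltransferases and their partners. They were chosen by name, and all 10 were found among the 23084 genes of the deposited table. H3K9 methylation is the histone mark of silent chromatin, and HP1 proteins read it through their chromodomain. SUV39H enzymes, SETDB1 and the G9a/GLP pair write the mark, TRIM28 brings SETDB1 to its targets, and HDAC3 removes histone acetylation at the nuclear edge. Lamina proteins tether such chromatin to the nuclear envelope, which is why these genes are of interest in cells that lack lamin A/C.

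RNA was sequenced from myeloid cells sorted from spleens of C57BL/6 mice aged 6 to 8 weeks. The 8 samples form 4 groups of 2, namely WT CD11b+Ly6C+, WT CD11b+Ly6G+, KO CD11b+Ly6C+ and KO CD11b+Ly6G+. CD11b+Ly6C+ marks the monocytic and CD11b+Ly6G+ the granulocytic subset, and KO cells carry the Lmna knockout, made by crossing floxed Lmna mice with LysM-Cre mice. LysM-Cre acts in the myeloid lineage as a whole, so the deletion is not confined to either sorted subset, and cells outside the lineage keep Lmna. The subset was taken from the sample titles, because the cell-marker label reads CD11b+Ly6C+ for all 8 samples.

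The value used here for each gene is a single mean normalized count, made by the authors, while the columns of their own comparison were not used. It carries no SD and no n, the depth of each sample cannot be read from it, and which of the 8 samples were averaged is not given in the sources used here. Values per sample and differences between wt and lamin A/C-deficient cells were not analysed here. The values below are therefore levels in a pool, and fewer cells of a type cannot be told apart from less RNA per cell. To compare genes, the mean was divided by the length of all exons of the gene and rescaled so that the 23004 genes with a known length sum to 1000000. This quantity is named the length-scaled level, in parts per 1000000 (ppm), and its median over all genes was 1.81.

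All 10 heterochromatin genes lay above the median of all genes, and 6 of them lay above the 75th percentile. Their median length-scaled level was 16.0 ppm, which is near the 75th percentile of all genes at 13.7. The range ran from 2.29 for Suv39h2 to 43.8 for Trim28, and no member reached the 90th percentile at 46.5. Against the 15697 protein-coding genes alone, whose median level was 5.77 and whose 75th percentile was 22.8, they stood lower. There 9 of the 10 lay above the median, Suv39h2 lay under it at percentile 37.6, 2 (Trim28 and Ehmt2) lay above the 75th percentile, and the median percentile of the members was 68.2. Among the 14286 genes with a mean of at least 10, Suv39h1 at percentile 49.4 and Suv39h2 at 23.6 lay under the median.

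**Figure D1:**
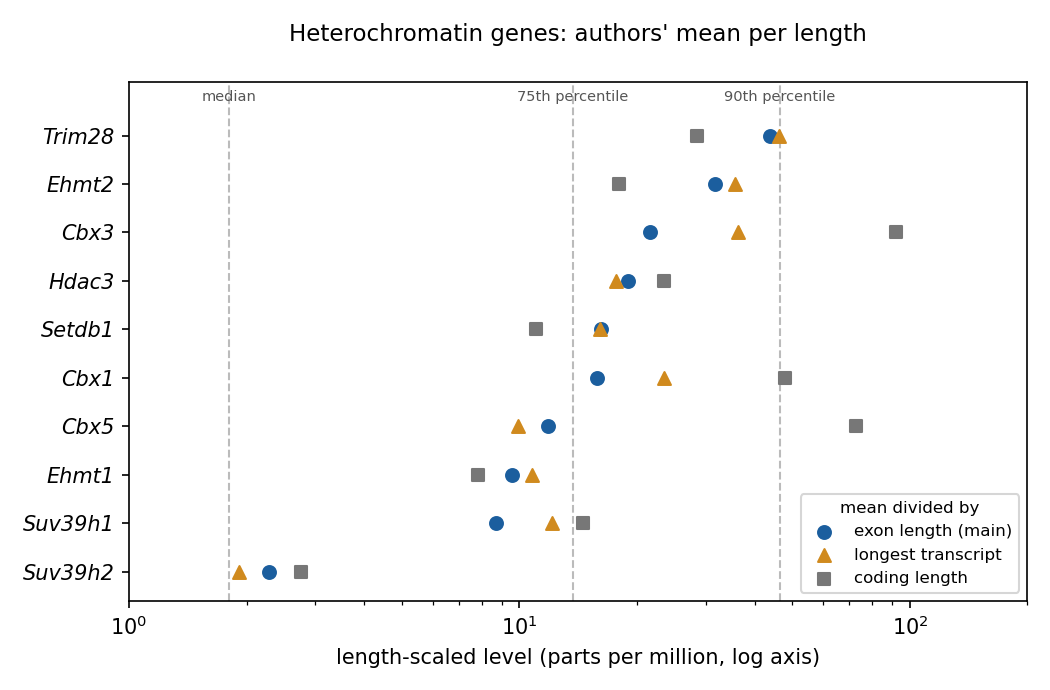
Length-scaled level of each heterochromatin gene in ppm on a log axis, from the authors' mean divided by the exon length (circles), the longest annotated transcript (triangles) or the coding length (squares). Dashed lines mark the median, 75th and 90th percentile of all genes on the exon-length scale. Trim28 is highest at 43.8 and Suv39h2 lowest at 2.29 by exon length, while the 3 HP1 genes move above the rest by coding length.

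The HP1 proteins are small adaptors, each with a chromodomain and a chromoshadow domain through which they pair and bind partners. Cbx3 (ENSMUSG00000029836.15), which encodes HP1γ, had the highest level of the 3, with a mean of 1347 normalized counts and a length-scaled level of 21.5 ppm. Cbx1 (ENSMUSG00000018666.13), which encodes HP1β, had a mean of 706 and a level of 15.8. Cbx5 (ENSMUSG00000009575.14), which encodes HP1α, had a mean of 1110 and a level of 11.8. By this measure Cbx3 made up 43.8% of the HP1 level, Cbx1 32.2% and Cbx5 24.0%.

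Cbx3 stayed above both of the other HP1 genes whichever of 3 lengths was used, by 1.36 to 1.93 times over Cbx1 and by 1.27 to 3.65 times over Cbx5. The order of Cbx1 and Cbx5 was not settled. Cbx1 was 1.34 times Cbx5 by exon length and 2.36 times by the longest transcript, but 0.657 times by coding length. The annotation gives Cbx5 9006 bases of exon for 573 coding bases, the most of the 3, against 4273 and 555 for Cbx1 and 5992 and 549 for Cbx3. Which part of those exons is present in these cells was not tested, and no error can be put on these ratios.

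The SUV39H enzymes write H3K9me3 at constitutive heterochromatin, such as the repeats around centromeres. By exon length they held the smallest share of any family, 6.09% of the summed length-scaled level of the 10 genes. Suv39h1 (ENSMUSG00000039231.18) had a mean of 479 normalized counts and a level of 8.70 ppm. Suv39h2 (ENSMUSG00000026646.16) had a mean of 105 and a level of 2.29, close to the median gene. Suv39h1 exceeded Suv39h2 by 3.80 times by exon length, 6.31 times by the longest transcript and 5.25 times by coding length.

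Of the Suv39h2 exon bases, 357 (8.10%) are shared with Dclre1c on the opposite strand, a DNA repair nuclease gene with a mean of 1159. Suv39h1 shares 767 exon bases (14.6%) with the antisense gene Gm14820, whose mean was 0.472. Whether the reads were counted by strand is not given in the sources used here. Reads in the shared stretches therefore cannot be assigned with certainty. The share of exon bases does not bound the share of reads, because Dclre1c had a mean of 1159 against 105 for Suv39h2. The levels of Suv39h1 and Suv39h2, and the ratios between them, are uncertain to an extent not known here.

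G9a and GLP act as a pair and write H3K9me1 and H3K9me2, mostly in euchromatin and at the lamina. Ehmt2 (ENSMUSG00000013787.15), the gene of G9a, had a mean of 1817 normalized counts and a length-scaled level of 31.7 ppm. Its place among the 10 was the second by exon length, the third by the longest transcript and the sixth by coding length. Ehmt1 (ENSMUSG00000036893.17), the gene of GLP, had a mean of 812 and a level of 9.59. Ehmt2 exceeded Ehmt1 by 2.29 to 3.31 times over the 3 lengths. In both pairs of paralogous enzymes a single gene held most of the length-scaled level, with 76.8% for Ehmt2 and 79.2% for Suv39h1.

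SETDB1 writes H3K9me3 at retroelements, where TRIM28, also known as KAP1, is brought in by KRAB zinc-finger proteins and serves as the platform. Trim28 (ENSMUSG00000005566.14) had the highest length-scaled level of the 10 by exon length and by the longest transcript, and the fourth by coding length. Its mean was 1901 normalized counts and its level 43.8 ppm, at percentile 89.5. Setdb1 (ENSMUSG00000015697.14) had a mean of 1155 and a level of 16.1. The ratio of Trim28 to Setdb1 was steady over the 3 lengths, at 2.58 to 2.87. Trim28 was above Suv39h2 by 19.2 times by exon length, 24.1 times by the longest transcript and 10.3 times by coding length. Of the Setdb1 exon bases, 75 (1.09%) overlap Cers2, a ceramide synthase gene on the opposite strand with a mean of 4086, and 249 (3.63%) overlap Gm37500, an unclassified gene model with a mean of 2.32.

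Hdac3 (ENSMUSG00000024454.15), the deacetylase of the NCoR corepressor complex, had a mean of 803 normalized counts and a length-scaled level of 19.0 ppm. Its place among the 10 was the fourth by exon length and the fifth by either of the other lengths. Of the other class I deacetylases, Hdac1 had a level of 54.0, Hdac2 of 13.7 and Hdac8 of 2.31. Hdac3 thus lay between Hdac1 and Hdac2, on a scale without an error.

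The 10 genes lie on 9 chromosomes of mm10, and all are annotated as protein-coding. Cbx1 spans chr11:96789127-96808640 on the plus strand, Cbx3 chr6:51470360-51483704 on the plus strand and Cbx5 chr15:103191544-103239816 on the minus strand. Suv39h1 is X-linked, at chrX:8061171-8074760 on the minus strand. Chromosome 2 holds Suv39h2 (chr2:3455815-3475031) and Ehmt1 (chr2:24789928-24919614), both on the minus strand. Ehmt2 spans chr17:34898469-34914052 and Trim28 chr7:12999114-13031035, both on the plus strand. Hdac3 lies on the minus strand at chr18:37935844-37955016. Setdb1, on the minus strand at chr3:95323525-95357202, is on the chromosome of the targeted gene, and the near ends of Setdb1 and Lmna are 6813569 bases apart.

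The paralogs share little exact sequence. The longest coding sequences of the HP1 genes were 70.2% to 71.5% identical over aligned bases, those of Suv39h1 and Suv39h2 61.8%, and those of Ehmt1 and Ehmt2 60.5%. No stretch of 50 coding bases was shared exactly within any of these 5 pairs. Processed pseudogenes, the intronless copies of an mRNA, are another matter for Cbx3. The annotation holds 22 pseudogenes whose closest coding gene is Cbx3, against 2 for Cbx1, 2 for Cbx5 and 0 for each of the other 7 genes.

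Of the 22 Cbx3 copies, 8 are in the table, at 89.6% to 99.8% identity to Cbx3. Cbx3-ps6 and Cbx3-ps7 share 90.1% and 88.3% of their stretches of 50 bases with Cbx3. Their means were nevertheless low, at 5.18 and 6.71 normalized counts. The 8 copies summed to 21.5, which is 1.57% of the total of Cbx3 and its copies, so adding them left the level of Cbx3 nearly as it was. Reads of Cbx3 and these copies cannot be told apart where the sequence is the same.

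The stretch printed to show both facts was sought among runs of 60 coding bases that lie, without gaps, in a single exon of each HP1 gene. Of these runs it is the one that the 3 genes have most in common, with capitals at each base that differs from Cbx3. It lies in the part that encodes the chromoshadow domain, at coding bases 466 to 525 of Cbx3, and each copy is read 5′ to 3′ on its own strand of GRCm38. Its places are chr6:51482520-51482579 (plus) for Cbx3, chr11:96806656-96806715 (plus) for Cbx1, chr15:103199692-103199751 (minus) for Cbx5, chr1:58647153-58647212 (plus) for Cbx3-ps7 and chr9:7723611-7723670 (plus) for Cbx3-ps8.
Cbx3: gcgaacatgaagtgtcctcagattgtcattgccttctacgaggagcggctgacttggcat
Cbx1: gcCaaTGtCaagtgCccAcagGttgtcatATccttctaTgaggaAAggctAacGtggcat
Cbx5: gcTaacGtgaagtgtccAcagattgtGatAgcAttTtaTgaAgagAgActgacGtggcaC
Cbx3-ps7: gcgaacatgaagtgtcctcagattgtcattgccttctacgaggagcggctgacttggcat
Cbx3-ps8: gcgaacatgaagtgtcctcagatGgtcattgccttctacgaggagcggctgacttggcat
Cbx1 differs from Cbx3 at 14 of the 60 bases and Cbx5 at 13, whereas Cbx3-ps7 differs at 0 and Cbx3-ps8 at 1. The copies printed are among the most similar of the 8 in the table: Cbx3-ps6 differs at 0 as well, Cbx3-ps3 at 3, Cbx3-ps4 and Cbx3-ps1 at 4 each, Gm7041 at 5 and Gm7721 at 6.

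Each promoter window found for the members held more CG dinucleotides than the median window of all genes. Windows of 300 bases around the start, from RefSeq on GRCm38.p6, were found for 9 of the 10 genes, all but Hdac3. There were 13 windows in all, since some genes have more than 1 start. The dinucleotide CG, which reads the same on both strands, occurred 8 to 40 times in them with a median of 29, against a median of 7 over 32851 windows of all genes. The highest count, 40, was at the downstream start of Ehmt2, and 3.91% of all windows hold as many. The lowest, 8, was at the downstream start of Cbx5, a count that 48.6% of all windows reach. The only window of Setdb1 and the upstream window of Suv39h1 held 15 each, a count that 34.6% of all windows reach. CG-rich promoters are common among widely expressed genes, and nothing particular to the heterochromatin genes is read from these counts.

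The levels of the other genes of the pathway were taken from lists of related genes. All 5 other genes listed as H3K9 methyltransferases were in the table. Prdm2 had a level of 54.9 ppm and Setdb2 of 7.03. Prdm16, Mecom and Prdm8, factors known from other tissues and from stem cells, were at 0.284, 0.0210 and 0.00604. All 11 demethylases listed, the enzymes that take the mark off, were in the table, and their median level was 21.6. Of these, 10 lay above the median level of the heterochromatin genes, which are not all writers of the mark.

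Kdm7a, a demethylase of H3K9me2 and H3K27me2, was the highest at 139 ppm, above Trim28. Kdm4a followed at 46.6, Kdm3b at 33.5, Phf2 at 33.3 and Jmjd1c at 28.4. Kdm4d, a gene known from testis, was nearly absent at 0.0949, the only demethylase of the list under the median of all genes.

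Of 18 symbols for silencing partners, 17 were in the table, where Tasor stands under its older name Fam208a. Their median level was 11.5 ppm, and 7 of the 17 exceeded the median of the members. By exon length none reached Trim28, and the highest was Daxx at 41.1, a histone chaperone that acts with Atrx at silent repeats. Before scaling by length the order differed, and the highest mean was that of Atf7ip at 6041, against 1901 for Trim28. Atf7ip, the partner that stabilizes SETDB1, was at 27.9 and so above Setdb1 itself. Dnmt1, the maintenance DNA methyltransferase, was at 29.1, Atrx at 22.2, Smchd1 at 16.8 and Dnmt3a at 8.82. The lowest were the subunits of the chromatin assembly factor that binds HP1, with Chaf1b at 3.48 and Chaf1a at 3.13, both above Suv39h2.

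The H4K20 methyltransferases that HP1 recruits were at like levels, with 21.5 ppm for Kmt5c and 16.7 for Kmt5b. All 5 genes of the HDAC3 corepressor complex lay above the median of the members. Ncor1, which activates HDAC3, was the highest at 90.4, followed by Gps2 at 45.8, Tbl1xr1 at 36.0 and, as the lowest, Tbl1x at 17.2. Hdac3, at 19.0, was thus close to Tbl1x and below Ncor1.

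All 7 lamina genes listed were in the table, and 5 of them exceeded the median of the heterochromatin genes. Lbr, the lamin B receptor, which binds HP1 and holds heterochromatin at the envelope, had a mean of 12853 normalized counts and a length-scaled level of 259 ppm. Lmnb1 was at 152, Tmpo at 43.6, close to Trim28, Banf1 at 40.8, and Emd, the gene of emerin, at 37.7. Lmna (chr3:88480147-88509956 of mm10), the gene that was targeted, had a mean of 79.5 and stood at percentile 46.7 of the length-scaled levels, under every heterochromatin gene. Because the mean pools samples, this value does not check the genotype of any library.

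**Figure D2:**
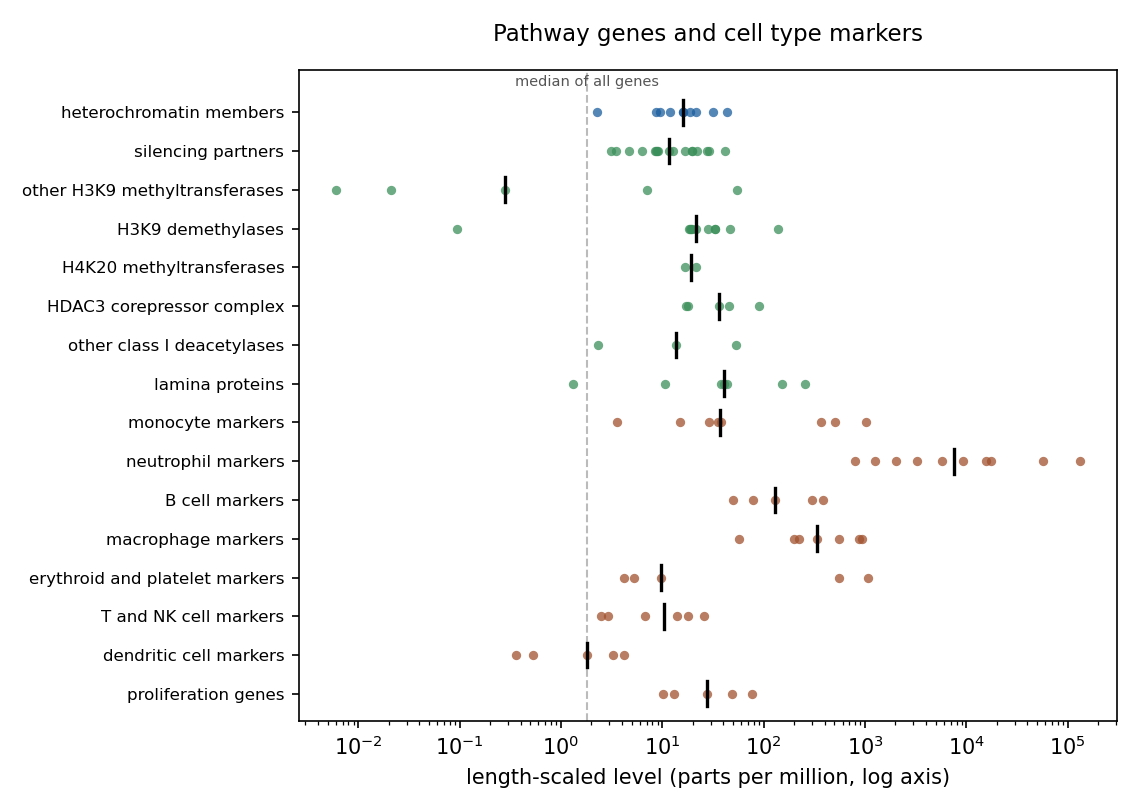
Length-scaled level in ppm on a log axis for each gene (points) of the heterochromatin members, the related pathway lists and the cell type markers, with the median of each list as a black bar and the median of all genes as a dashed line. The members lie between 2.29 and 43.8, Lbr stands highest of the pathway genes at 259, and the neutrophil markers lie from 799 to 133153.

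The pool was also checked against markers of cell types. All 8 genes listed for monocytes were in the table and summed to 2024 ppm. Of this, 1031 came from Itgam, the gene of CD11b, which by the sort marks both subsets. The other 7 summed to 993, a sum taken after seeing the data, with Ly6c2 at 504, Csf1r at 368, F13a1 at 38.4, Ccr2 at 35.5 and Fcgr1 at 29.1. Cx3cr1 at 15.0 and Ly6c1 at 3.56 lay under the median of the heterochromatin genes. Neutrophil genes were far higher, and all 10 of them exceeded every member. S100a9 had the highest length-scaled level of the 23004 genes at 133153, S100a8 was at 57053, and Ly6g, the granulocytic sort marker, was at 799. The list summed to 245842 ppm of the 1000000 in all, most of it from S100a9 and S100a8. Which sorted subset carried this RNA was not tested, so the sum is not a measure of granulocytic cells.

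Markers of cells other than the sorted subsets were also measured. All 5 of 5 B cell genes were in the table and summed to 950 ppm, with Cd79a the highest at 389 and Pax5 at 49.4. The 7 genes of red pulp macrophages, the iron-recycling cells of the spleen, summed to 3173, with C1qb at 930 and Spic, the factor that defines them, at 57.7. The 5 erythroid and platelet genes summed to 1639, nearly all of it from Hbb-bs at 1070 and Hba-a1 at 550. The 6 T and NK cell genes summed to 70.1, with Cd3d the highest at 25.8, and the 5 dendritic cell genes to 10.1, with Cd209a at 4.17. No listed marker was absent from the table, and Xcr1 was the lowest at 0.361.

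The 5 proliferation genes had a median level of 27.5 ppm, against 16.0 for the heterochromatin genes. Pcna at 76.2 and Mki67 at 48.9 lay above Trim28, and Ccnb1 was the lowest at 10.1. How much of the level of each heterochromatin gene came from monocytic, granulocytic, dividing or admixed cells was not tested, and a pooled mean holds no value that would tell it.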

How the data were processed

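RNA from 8 samples was sequenced. Per the paper's methods, the authors used Cutadapt 1.14 for trimming, STAR 2.5.2b for alignment to mm10, RSEM 1.3.0 with GENCODE M12 for gene quantities and DESeq2 1.20.0 for comparisons. The deposited signal per gene is the authors' mean of estimated counts divided by size factors, with no correction for gene length. The other deposited columns hold fold changes with their standard errors, test statistics and p-values of the authors' own comparison of genotypes, and were not used. The test of counts planned for values per sample was not run.

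Of the 23084 genes, 23004 were matched by identifier to GENCODE M21, a later annotation of the same build, and 80 were not. Exon length is the union of annotated exons. For 28 symbols on more than 1 row, the highest mean was taken. Pseudogenes were assigned with blastn 2.17.0 (e-value at most 1e-20) to their closest coding transcript. Coding sequences were aligned globally with Biopython 1.88, which was chosen after seeing the data. Protein identity and protein motifs were not analysed here. Python 3.11.15 was used, and the steps were tested on simulated data.

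The genes named are the members, their pseudogenes, Lmna, the markers and, from each list, the genes with the highest and the lowest mean and up to 4 more in order of the mean. Some genes of the lists are not reported here by name. Daxx, Chaf1a, Dclre1c, Gm14820, Gm37500 and Cers2 were chosen outside that rule, once their values were known. The members and lists were chosen with earlier results of these data known.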

Additional observations from a re-analysis of the deposited data

How the results depend on the processing

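No paired analysis was possible because the deposited mean pools samples, and for the same reason no replicate could be left out and no other normalization of counts could be run. A value was taken as moved when it changed by more than 1.5 times, since no replicate spread exists. The median share of the members in the summed mean was 38.1 ppm of the sum, 39.8 without genes of the mitochondrial genome and 53.0 without the 100 most abundant genes. Leaving genes out of the sum raises the share of every member by the same factor, by construction. These settings therefore say nothing about single members or their order. Their median length-scaled level was 16.0 by exon length, 16.9 by the longest transcript and 20.7 by coding length. Their median percentile was 77.0 among all genes, 62.9 among the 14286 genes with a mean of at least 10 and 68.2 among protein-coding genes.

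Single genes moved more. By coding length, taken from the annotation in place of protein lengths, over the 16066 genes that have one, the levels were 92.2 for Cbx3, 72.8 for Cbx5, 47.8 for Cbx1, 28.5 for Trim28, 18.0 for Ehmt2 and 14.5 for Suv39h1, so that the HP1 genes took the first 3 places. Dividing by coding length raises genes with long untranslated exons by construction. By the longest transcript, Cbx3 alone moved, to 36.3. Suv39h2 stood at percentile 52.4 among all genes and 23.6 among those with a mean of at least 10, where fewer low genes are ranked below it. Adding the pseudogene rows gave Cbx3 a mean of 1369 in place of 1347. Identity over the length of the shorter coding sequence, chosen after seeing the data, was 67.9%, 68.6% and 65.9% for the pairs Cbx1 and Cbx3, Cbx1 and Cbx5, and Cbx3 and Cbx5. The planned test between genotypes, with its alternatives, and the planned comparison of proteins were not run.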

Other observations

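The Cbx3 copies are unevenly spread over the genome. Chromosome 7 holds 8 of the 22 pseudogenes whose closest coding gene is Cbx3, and 0 of these 8 are in the table. Chromosome 13 holds 4, of which Cbx3-ps4 had a mean of 1.87 normalized counts and Cbx3-ps1 of 0.388. The other copies in the table were Cbx3-ps7 on chromosome 1, Cbx3-ps6 on chromosome 14 and Cbx3-ps8 on chromosome 9, with means of 6.71, 5.18 and 5.30, and Gm7721, Gm7041 and Cbx3-ps3, with means of 0.969, 0.670 and 0.402. No spread can be given for these values.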
